A study of Mus musculus with 16 samples.

Results

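The 31 genes described here encode mouse selenoproteins, the cysteine-based glutathione peroxidases Gpx7 and Gpx8, and factors that make selenocysteine and insert it into protein. The selenoprotein genes Dio2, Dio3 and Selenov are not among them. The 31 genes were taken by gene symbol from a count table of 54392 symbols, and all 31 were found. RNA-seq was done on colonocytes (epithelium lining the colon) of C57BL/6 mice given 1 of 2 diets for 3 weeks: fish oil with pectin (7 libraries) or corn oil with cellulose (9 libraries). Fish oil supplies n-3 fatty acids and pectin is a fermentable fibre, whereas corn oil is rich in n-6 fatty acids and cellulose is fermented poorly. Fat and fibre changed together, so their effects cannot be told apart, and no other treatment, allele or time point is given in the labels. The title of the study names ferroptosis, a cell death by iron-dependent lipid peroxidation that the selenoprotein Gpx4 restrains.

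Selenocysteine is an amino acid in which selenium takes the place of the sulfur of cysteine, and it usually sits in the active site of the protein. It is encoded by UGA, which elsewhere ends translation. A hairpin in the 3′ untranslated region of the messenger, bound by Secisbp2, recruits the elongation factor Eefsec with the selenocysteine tRNA and lets the ribosome read through. The amino acid is built on its own tRNA: serine is attached by seryl-tRNA synthetase, phosphorylated by Pstk and exchanged for selenium by Sepsecs, which uses the selenophosphate made by Sephs2. In the intestinal epithelium Gpx2 is known as the gastrointestinal glutathione peroxidase, and Gpx1, Gpx4 and Txnrd1 are present in most cells.

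The codon that makes these proteins unusual is shown first, since it sets apart the selenoproteins from the cysteine-based members and is read from the same messengers that are counted below. Each stretch is the coding strand of a GENCODE transcript on GRCm38, with up to 12 bases on either side, and the capitals mark the selenocysteine codon (TGA) or, in Gpx7, the aligned cysteine codon (TGT). The selenocysteine glutathione peroxidases share part of the setting of this codon, as their active-site stretches show, and a Gpx7 stretch is set beside them.
Gpx1: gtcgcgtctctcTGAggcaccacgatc
Gpx2: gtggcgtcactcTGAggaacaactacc
Gpx3: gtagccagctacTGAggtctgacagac
Gpx4: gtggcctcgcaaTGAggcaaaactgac
Gpx7: gtagctagcgaaTGTggcttcacagac
Of the 24 bases around the codon, Gpx2 shared 16 with Gpx4, Gpx1 and Gpx7 shared 14 each and Gpx3 shared 13. The Gpx7 stretch was chosen as the one sharing most of these bases with Gpx4, so its count is the highest possible and not comparable with the others. The Gpx4 codon lies at chr10:80054737-80054739 on the plus strand, in exon 3 of 7, and is codon 73 of 197, counted from the start codon. The Gpx2 codon lies at chr12:76795256-76795258 on the minus strand and is codon 40 of 190.

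The next stretches were chosen because their genes carry the results described below, or because the codon stands at the very end of the protein.
Selenoh: cattgtacgagcTGAcgcgtgtacggc
Selenow: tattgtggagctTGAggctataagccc
Msrb1: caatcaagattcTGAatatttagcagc
Selenof: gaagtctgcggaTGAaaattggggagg
Sephs2: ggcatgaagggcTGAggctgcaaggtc
Txnrd1: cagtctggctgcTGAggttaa
Selenos: tcatctggcggcTGAaactaa
In Selenoh (chr2:84670381-84670383, minus strand) and Selenow (chr7:15920464-15920466, minus strand) the codon is number 38 of 116 and number 13 of 88. In Txnrd1 and Selenos 1 codon follows before the stop codon, so that TGA is the next to last codon of the coding sequence. The annotated transcripts of 21 of the 31 genes hold selenocysteine codons, 1 in each except Selenop, whose 380 codons include 10. Sephs2 is both a selenoprotein and an enzyme of selenocysteine synthesis, and its gene has a single coding exon in the transcript used.

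**Figure D1:**
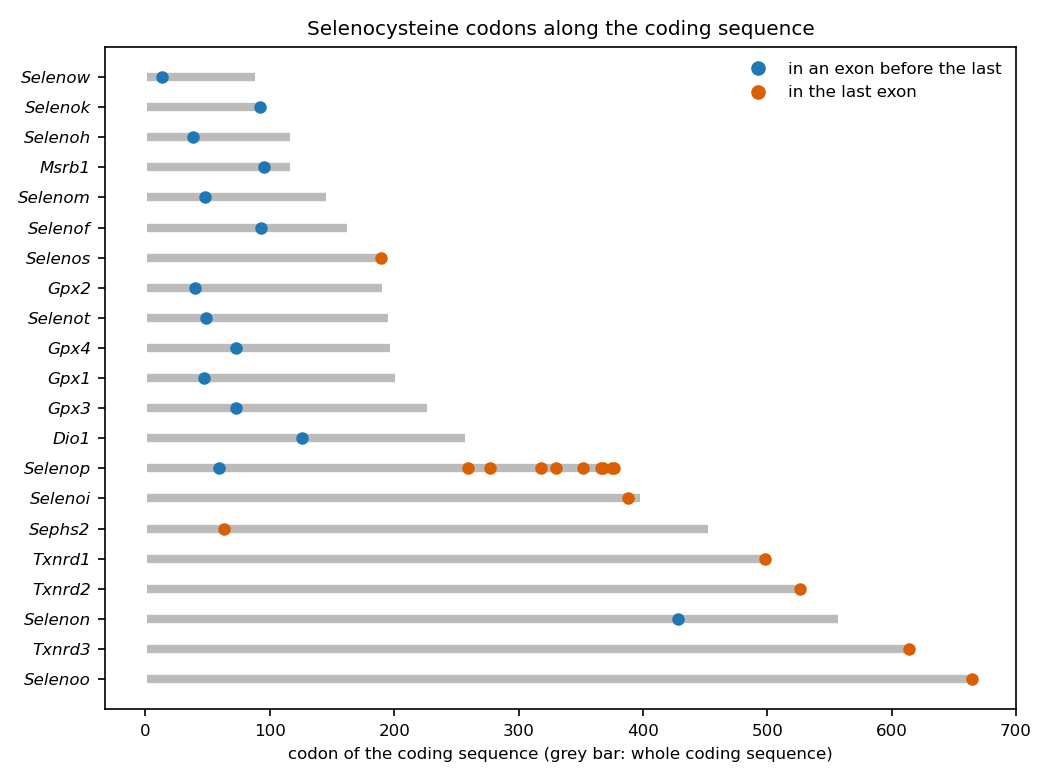
Position of each selenocysteine codon (points) along the coding sequence in codons (grey bars), for the 21 genes that have one, coloured by whether it lies in the last exon. In 14 genes a codon lies before the last exon, among them Selenop with 1 of its 10, and in 7 genes the codons lie only in the last exon.

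Library totals ran from 16212831 to 19512755 counts with fish oil/pectin and from 13996288 to 19331984 with corn oil/cellulose. Library names came in 2 forms, whose meaning the sources used here do not give: 5 libraries of each diet began with GC, and 2 fish oil/pectin and 4 corn oil/cellulose libraries did not ("other-named"). The 6 other-named libraries were all read as male from Y-linked counts, as were 1 of 5 GC-named fish oil/pectin and 2 of 5 GC-named corn oil/cellulose libraries. Epithelial markers were high in every library. The 9 fibroblast and muscle markers summed to at most 1.67 CPM with fish oil/pectin and 4.54 CPM with corn oil/cellulose, and the 6 B and plasma cell markers to at most 0.861 and 1.33 CPM. The 4 endothelial markers summed to 3.79 to 11.7 CPM with fish oil/pectin and to 6.82 to 12.3 CPM with corn oil/cellulose, with Cdh5 at 0 in all 16 libraries and Pecam1 and Vwf at 0 in none. The 8 macrophage and myeloid markers summed to 45.8 to 86.1 CPM with fish oil/pectin and to 39.3 to 52.1 CPM with corn oil/cellulose. Most of this came from Cd14, at 39.1 to 80.1 CPM with fish oil/pectin and 28.2 to 42.3 CPM with corn oil/cellulose. In the test described below 1 of the 5 tested myeloid markers rose and 1 fell, with a median log2 fold change of -0.34.

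Selenoprotein messengers lay mostly higher in colonocytes of the fish oil/pectin group. Of the 30 genes with enough reads to test, 15 rose, 3 fell and 12 did not pass at an adjusted p of 0.05 (edgeR quasi-likelihood test with Benjamini-Hochberg adjustment over all 14321 genes tested, with the name form as a term). Over all genes 21.7% were called higher and 20.1% lower, or 41.7% in all. The median log2 fold change was 0.20 over the 30 genes and -0.00 over all genes. The 21 genes with a selenocysteine codon held 12 of the 15 increases and 0 decreases, with a median of 0.24, and 19 of the 30 genes had an unadjusted p under 0.05, as had 7198 of the 14321 genes tested. The 9 tested genes without the codon held 3 increases and all 3 decreases, with a median of 0.20. The difference between these classes was not tested. Levels are CPM, counts per library size scaled with TMM factors, and fold changes are fish oil/pectin over corn oil/cellulose. In such bulk samples fewer cells of a type and less RNA per cell cannot be told apart.

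**Figure D2:**
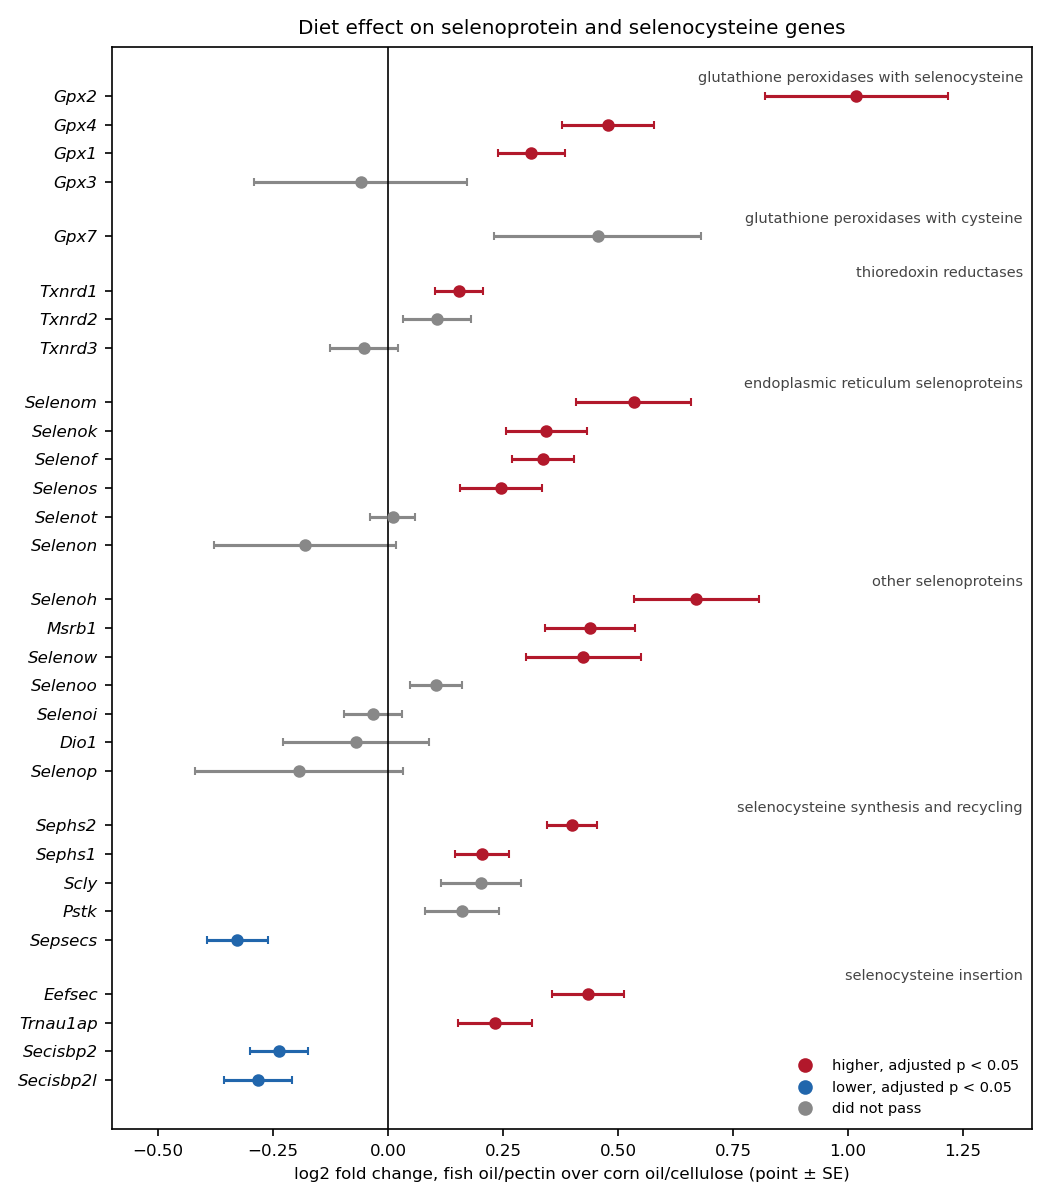
Log2 fold change with its standard error (horizontal axis) for the 30 tested genes, grouped by role. Points right of 0 were higher with fish oil/pectin: 15 red points passed the test upward, 3 blue points downward, and Gpx2 stands farthest right at 1.02.

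The level per kilobase of exon was highest for Selenop, the secreted selenium carrier, at 310 CPM per kb with fish oil/pectin and 341 CPM per kb with corn oil/cellulose. Gpx1 followed, at 276 and 214 CPM per kb for the same diets. Gpx2 stood at 158 CPM per kb with fish oil/pectin, next to Selenow at 154, and at 78.2 with corn oil/cellulose, against 105 for Selenow. The length counts every base of any annotated exon of the gene, so this order depends on the annotation. By mean CPM Gpx2 was above Gpx1 with fish oil/pectin (508 against 398) and below it with corn oil/cellulose (252 against 308). The lowest levels per kb were those of Gpx8, Gpx3, Selenon and Gpx7, all near or below 1 CPM per kb with either diet, of which Gpx7 stood at 1.12 CPM per kb with fish oil/pectin and 0.779 with corn oil/cellulose. Gpx8, a cysteine-based peroxidase of the endoplasmic reticulum, reached at most 0.331 CPM with fish oil/pectin and 0.186 CPM with corn oil/cellulose and was not tested.

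Among the selenocysteine glutathione peroxidases, which reduce hydrogen peroxide and lipid hydroperoxides with glutathione, 3 of 4 rose. Gpx2 (ENSMUSG00000042808.8, chr12:76792333-76795554, minus strand) ranged from 333 to 900 CPM with fish oil/pectin, with a median of 411, against 195 to 339 CPM with a median of 223 with corn oil/cellulose. Fish oil/pectin libraries 6 and 7 were highest, at 669 and 900 CPM, and the ranges of the diets touched only between the lowest fish oil/pectin library and the highest corn oil/cellulose library. Gpx2 averaged 508 ± 207 CPM (SD, n = 7) with fish oil/pectin and 252 ± 49.6 CPM (SD, n = 9) with corn oil/cellulose, a 2.03-fold increase (log2 fold change 1.02 ± 0.20 (SE), edgeR adjusted p = 0.00122). Gpx1, the cytosolic peroxidase found in most cells (chr9:108338903-108340343, plus strand), ranged from 291 to 476 CPM with fish oil/pectin, with a median of 407, against 287 to 336 CPM with a median of 309 with corn oil/cellulose. Its log2 fold change was 0.31 ± 0.07 (adjusted p = 0.00312). The 2 other-named fish oil/pectin libraries lay within the corn oil/cellulose range of Gpx1 and the 5 GC-named ones lay above it.

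Gpx4 (ENSMUSG00000075706.10, chr10:80047166-80056439, plus strand), which reduces lipid hydroperoxides within membranes, ranged from 61.7 to 130 CPM with fish oil/pectin, with a median of 102, and from 54.1 to 75.7 CPM with corn oil/cellulose, with a median of 66.3. Its log2 fold change was 0.48 ± 0.10 (edgeR adjusted p = 0.00142), and as with Gpx1 the 5 GC-named fish oil/pectin libraries lay above every corn oil/cellulose library. The messengers of the 4 selenocysteine peroxidases together summed to 780 to 1508 CPM with fish oil/pectin and to 568 to 725 CPM with corn oil/cellulose. The member of this group that did not pass was Gpx3, the secreted plasma peroxidase, at 0.403 to 1.88 CPM with fish oil/pectin and 0.753 to 1.65 CPM with corn oil/cellulose (log2 fold change -0.06 ± 0.23, adjusted p = 0.857). Gpx7, which has cysteine in place of selenocysteine, was as scarce, at 0.834 to 2.24 CPM with fish oil/pectin and 0.550 to 1.65 CPM with corn oil/cellulose. Its log2 fold change of 0.46 ± 0.22 did not pass (adjusted p = 0.111), but passed without fish oil/pectin library 3 (0.56, adjusted p = 0.0424). Reads of Gpx2 and Gpx4 could also fall to the annotated copies Gpx2-ps1 and Gpx4-ps2, and how such reads were divided is unknown from the sources used here.

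The thioredoxin reductases pass electrons from NADPH to thioredoxin through the selenocysteine at their end. Txnrd1, the cytosolic enzyme, ranged from 301 to 369 CPM with fish oil/pectin, with a median of 335, against 274 to 317 CPM with a median of 298 with corn oil/cellulose. The increase was small, with a log2 fold change of 0.15 ± 0.05 (edgeR adjusted p = 0.0241), and the call was lost when fish oil/pectin library 2 was left out (0.13, adjusted p = 0.0591) or when libraries 6 and 7 both were (0.12, adjusted p = 0.0823). Scaled by total counts alone, Txnrd1 was at 0.08 (adjusted p = 0.245). It did not pass in GC-named (0.09, adjusted p = 0.301) or other-named libraries alone (0.25, adjusted p = 0.0624). The call was lost too without the low-count filter (0.15, adjusted p = 0.0853) or with the replicate number as a further term (0.17, adjusted p = 0.114). The mitochondrial Txnrd2 ranged from 18.1 to 26.1 CPM with fish oil/pectin and from 17.8 to 22.4 CPM with corn oil/cellulose, and did not pass (0.11 ± 0.07, adjusted p = 0.264). Txnrd3, which also carries a glutaredoxin domain, ranged from 13.3 to 17.9 CPM with fish oil/pectin and from 14.1 to 18.5 CPM with corn oil/cellulose, and did not pass either (-0.05 ± 0.07, adjusted p = 0.602).

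Of the 6 selenoproteins of the endoplasmic reticulum 4 rose. Selenof, a thioredoxin-like partner of the glycoprotein folding sensor Uggt1, ranged from 239 to 309 CPM with fish oil/pectin, with a median of 265, against 190 to 255 CPM with a median of 216 with corn oil/cellulose. Its log2 fold change was 0.34 ± 0.07 (edgeR adjusted p = 0.00117), and within each name form the ranges of the diets did not overlap. Selenom, another protein with a thioredoxin fold, had the largest log2 fold change of the group. It ranged from 69.8 to 148 CPM with fish oil/pectin, with a median of 105, and from 60.2 to 97.6 CPM with corn oil/cellulose, with a median of 66.1 (log2 fold change 0.53 ± 0.12, adjusted p = 0.00318). Selenok, a membrane protein that works with the palmitoyltransferase Zdhhc6, ranged from 31.5 to 57.5 CPM with fish oil/pectin and from 26.1 to 34.5 CPM with corn oil/cellulose (0.34 ± 0.09, adjusted p = 0.00511). The annotation holds 6 copies of Selenok, so the division of its reads is uncertain.

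Selenos, which with Vcp and Derl1 draws misfolded proteins out of the endoplasmic reticulum, ranged from 75.1 to 126 CPM with fish oil/pectin, with a median of 84.3, against 69.4 to 80.9 CPM with a median of 78.7 with corn oil/cellulose. Fish oil/pectin libraries 6 and 7 were highest for Selenos, at 107 and 126 CPM. Its log2 fold change of 0.24 ± 0.09 passed narrowly (edgeR adjusted p = 0.0347) and did not pass without any 1 of fish oil/pectin libraries 6 or 7 or corn oil/cellulose libraries 5 to 9 (0.17 to 0.24). Without libraries 6 and 7 together it was at 0.10 (adjusted p = 0.189). Selenot, a thioredoxin-like protein needed for hormone-secreting cells, was at 152 to 187 CPM with fish oil/pectin and at 156 to 190 CPM with corn oil/cellulose (0.01 ± 0.05, adjusted p = 0.891). Selenon, a calcium-linked protein known from muscle, was at 2.44 to 5.55 CPM with fish oil/pectin and at 2.42 to 6.13 CPM with corn oil/cellulose (-0.18 ± 0.20, adjusted p = 0.486).

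**Figure D3:**
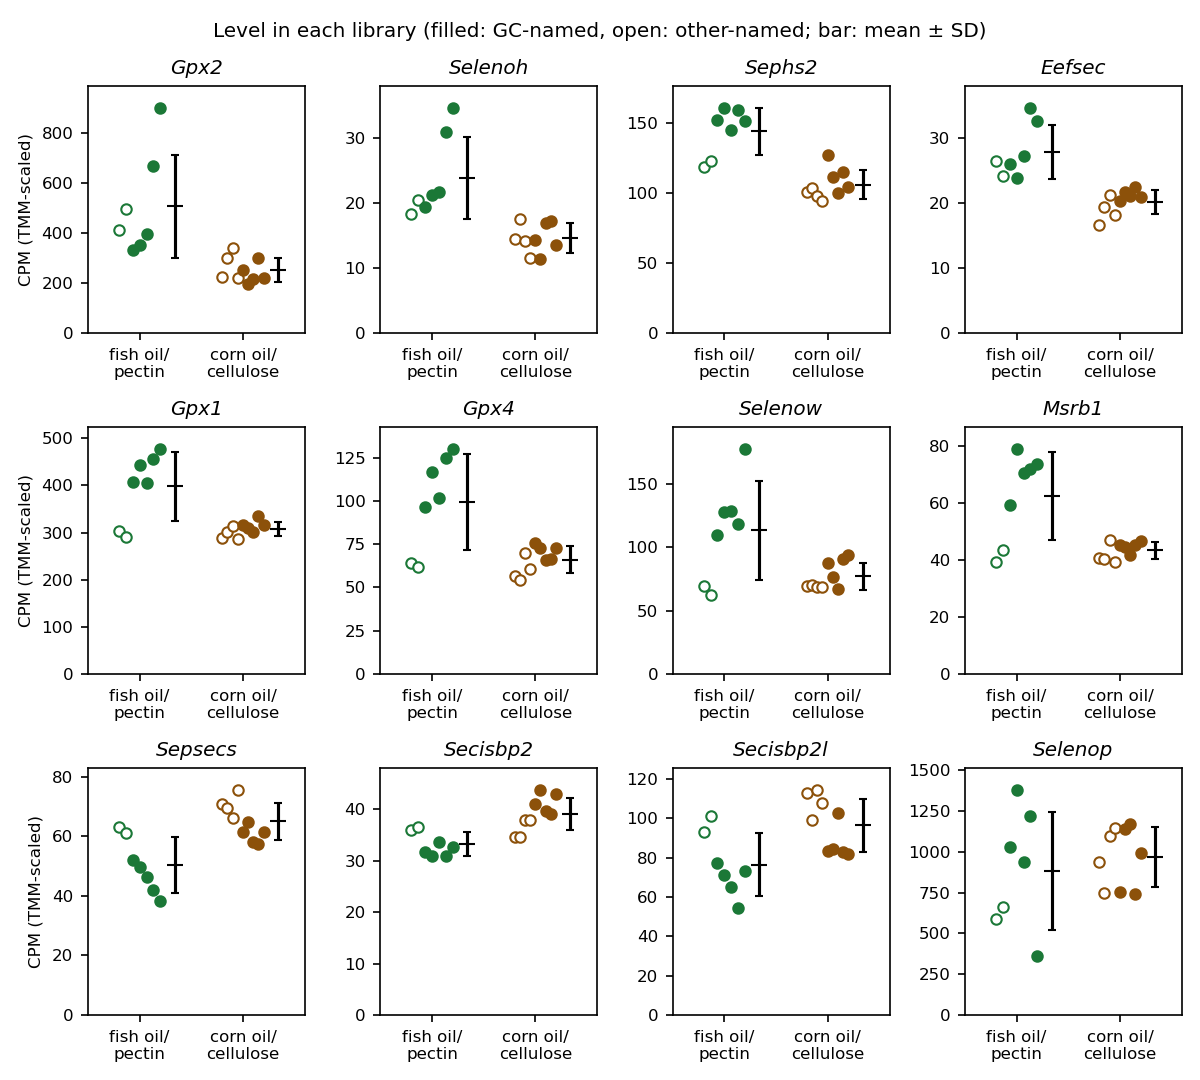
CPM (vertical axes, from 0) of 12 genes in each library, fish oil/pectin left and corn oil/cellulose right, with filled points for GC-named and open points for other-named libraries and bars for mean ± SD. Selenoh and Eefsec do not overlap between the diets, whereas in Gpx1, Gpx4, Selenow and Msrb1 the 2 open fish oil/pectin points lie among or near the corn oil/cellulose points.

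Of the remaining selenoproteins 3 of 7 rose: Selenoh, Selenow and Msrb1. Selenoh, a small nucleolar protein (ENSMUSG00000076437.10, chr2:84669215-84670770, minus strand), ranged from 18.3 to 34.6 CPM with fish oil/pectin, with a median of 21.2, against 11.4 to 17.5 CPM with a median of 14.4 with corn oil/cellulose. Every fish oil/pectin library was above every corn oil/cellulose library, and libraries 6 and 7 were again highest, at 30.9 and 34.6 CPM. The log2 fold change was 0.67 ± 0.14 (edgeR adjusted p = 0.00122). Such full separation upward held for 2 of the 30 genes, Selenoh and Eefsec, and for 2.35% of all genes tested, and downward for 0 of the 30 and 0.999% of all genes. Selenow, a small cytosolic protein with a thioredoxin fold, ranged from 62.2 to 177 CPM with fish oil/pectin, with a median of 118, and from 67.3 to 93.8 CPM with corn oil/cellulose, with a median of 70.3 (0.42 ± 0.12, adjusted p = 0.0117). Msrb1, which reduces oxidised methionine in proteins, ranged from 39.4 to 78.9 CPM with fish oil/pectin, with a median of 70.7, and from 39.5 to 47.2 CPM with corn oil/cellulose, with a median of 44.6 (0.44 ± 0.10, adjusted p = 0.00221). For both genes the upper part of the fish oil/pectin range was formed by the GC-named libraries.

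Selenop (ENSMUSG00000064373.12, chr15:3268547-3280508, plus strand) had the widest spread in CPM of the 31 genes. It ranged from 360 to 1376 CPM with fish oil/pectin, with a median of 937, against 741 to 1172 CPM with a median of 993 with corn oil/cellulose. Fish oil/pectin library 7 was lowest at 360 CPM and library 4 highest at 1376 CPM, so the diets overlapped widely (-0.19 ± 0.23, edgeR adjusted p = 0.516). Dio1, a deiodinase that activates or clears thyroid hormone, ranged from 74.9 to 169 CPM with fish oil/pectin and from 90.9 to 146 CPM with corn oil/cellulose (-0.07 ± 0.16, adjusted p = 0.752). Its 3 lowest fish oil/pectin libraries, numbers 1, 2 and 7, were also the 3 lowest for Selenop. Selenoo, a mitochondrial enzyme that attaches AMP to proteins, was at 57.3 to 78.7 CPM with fish oil/pectin and 58.1 to 70.0 CPM with corn oil/cellulose (0.10 ± 0.06, adjusted p = 0.149). Selenoi, which makes phosphatidylethanolamine, was at 68.9 to 111 CPM with fish oil/pectin and 77.0 to 103 CPM with corn oil/cellulose (-0.03 ± 0.06, adjusted p = 0.699).

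The genes that make selenocysteine moved in different directions. Sephs2, which makes selenophosphate (ENSMUSG00000049091.6, chr7:127271879-127274055, minus strand), ranged from 119 to 161 CPM with fish oil/pectin, with a median of 151, against 94.4 to 127 CPM with a median of 104 with corn oil/cellulose. Only corn oil/cellulose library 5, at 127 CPM, stood above the lowest fish oil/pectin libraries, and within each name form the diets did not overlap. With a log2 fold change of 0.40 ± 0.06 and an edgeR adjusted p of 0.000381, Sephs2 had the lowest p of the 30 genes and was the only 1 that passed under all 31 other settings tried. Sephs1, its paralogue without a selenocysteine codon, ranged from 42.9 to 55.8 CPM with fish oil/pectin and from 39.0 to 50.9 CPM with corn oil/cellulose (0.20 ± 0.06, adjusted p = 0.0102). Scaled by total counts alone Sephs1 did not pass (0.13, adjusted p = 0.0984). It also did not pass in GC-named (0.16, adjusted p = 0.109) or other-named libraries alone (0.26, adjusted p = 0.0936). The call was lost too without the name-form term (0.18, adjusted p = 0.0515) or with the replicate number as a further term (0.21, adjusted p = 0.0998).

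Sepsecs, the synthase that completes selenocysteine on its tRNA (ENSMUSG00000029173.12, chr5:52640087-52669708, minus strand), fell. It ranged from 38.3 to 63.0 CPM with fish oil/pectin, with a median of 49.7, against 57.3 to 75.4 CPM with a median of 65.0 with corn oil/cellulose (log2 fold change -0.33 ± 0.07, edgeR adjusted p = 0.00122). The 5 GC-named fish oil/pectin libraries lay below all 9 corn oil/cellulose libraries, and the 2 other-named ones, at 61.2 and 63.0 CPM, lay below the 4 other-named corn oil/cellulose libraries. Pstk, the kinase of the step before, ranged from 17.2 to 28.7 CPM with fish oil/pectin and from 18.3 to 23.0 CPM with corn oil/cellulose and did not pass (0.16 ± 0.08, adjusted p = 0.116). It passed without fish oil/pectin library 2 (0.22, adjusted p = 0.0350) and in GC-named libraries alone (0.25, adjusted p = 0.0463). It also passed with the trend on exon length described below removed (0.30, adjusted p = 0.0216). Pstk shares 4652 exon bases with Ikzf5 on the opposite strand. Scly, which releases selenium from selenocysteine for reuse, ranged from 18.2 to 25.3 CPM with fish oil/pectin and from 14.7 to 24.1 CPM with corn oil/cellulose and did not pass (0.20 ± 0.09, adjusted p = 0.0712). Scly passed when fish oil/pectin library 3 was left out (0.25, adjusted p = 0.0253), and also when corn oil/cellulose library 8 was (0.24, adjusted p = 0.0268).

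All 4 genes of selenocysteine insertion passed the test, 2 upward and 2 downward. Eefsec, the elongation factor that delivers the selenocysteine tRNA (ENSMUSG00000033216.9, chr6:88257334-88446539, minus strand), ranged from 23.9 to 34.5 CPM with fish oil/pectin, with a median of 26.4, against 16.7 to 22.4 CPM with a median of 20.9 with corn oil/cellulose. No library of the 2 diets overlapped, and the log2 fold change was 0.43 ± 0.08 (edgeR adjusted p = 0.000737). Trnau1ap, a protein that binds this tRNA, ranged from 21.9 to 40.4 CPM with fish oil/pectin and from 21.0 to 29.4 CPM with corn oil/cellulose (0.23 ± 0.08, adjusted p = 0.0276). The call for Trnau1ap was lost without any 1 of fish oil/pectin libraries 6 or 7 or corn oil/cellulose libraries 5, 6 or 7 (0.18 to 0.23), and without fish oil/pectin libraries 6 and 7 together (0.14, adjusted p = 0.138).

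Secisbp2, which binds the hairpin that marks selenoprotein messengers (ENSMUSG00000035139.14, chr13:51651697-51684044, plus strand), ranged from 30.9 to 36.6 CPM with fish oil/pectin, with a median of 32.7, against 34.7 to 43.7 CPM with a median of 39.2 with corn oil/cellulose. It fell by 0.24 on the log2 scale (SE 0.06, edgeR adjusted p = 0.00648). Its paralogue Secisbp2l ranged from 54.3 to 101 CPM with fish oil/pectin, with a median of 73.5, and from 81.9 to 114 CPM with corn oil/cellulose, with a median of 99.0, and fell by 0.28 (SE 0.07, adjusted p = 0.00593). In both genes every GC-named fish oil/pectin library lay below every GC-named corn oil/cellulose library. The other-named libraries overlapped, at 35.9 and 36.6 CPM for Secisbp2 with fish oil/pectin against 34.7 to 38.0 CPM with corn oil/cellulose.

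The effects of diet were next compared between the library name forms in a joint edgeR fit with a diet effect for each form. In GC-named libraries 16 of the 30 genes rose and 3 fell, where 23.1% of all genes were called higher and 21.8% lower, 45.0% in all. In other-named libraries, with 2 fish oil/pectin and 4 corn oil/cellulose libraries, 0 of the 30 passed and 0.00% of all genes did, while 7 of the 30 and 2385 of all genes had an unadjusted p under 0.05. The difference between the forms passed for 5 of the 30 genes, 4 with a larger value in GC-named libraries and 1 with a lower one, against 4.27% and 4.14% of all genes in these directions, or 8.41% in all. Gpx1 was at 0.47 ± 0.06 in GC-named and -0.00 ± 0.08 in other-named libraries (difference 0.47, adjusted p = 0.0181). For Gpx4 the difference was 0.62 (adjusted p = 0.0241), for Selenow 0.74 (adjusted p = 0.0311) and for Msrb1 0.68 (adjusted p = 0.0145). Secisbp2 was at -0.37 ± 0.06 in GC-named and 0.00 ± 0.08 in other-named libraries (difference -0.37, adjusted p = 0.0314). The other-named fish oil/pectin libraries are 2, so leaving out 1 of them leaves a single library, which the fit assumes to vary like the other groups. Without library 2 the difference passed for 0 of the 30 genes, with values of 0.44 for Gpx1, 0.59 for Gpx4, 0.66 for Selenow, 0.75 for Msrb1 and -0.36 for Secisbp2. Without library 1 it passed for 1 gene, and without corn oil/cellulose library 3 or 6 for 3.

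For the other genes the difference between the name forms did not pass. Eefsec was at 0.44 ± 0.10 in GC-named and 0.42 ± 0.13 in other-named libraries (difference adjusted p = 0.970). Gpx2 stood at 1.16 ± 0.26 and 0.75 ± 0.34 in these forms (difference adjusted p = 0.607), Selenoh at 0.80 ± 0.16 and 0.43 ± 0.22 (adjusted p = 0.444) and Sephs2 at 0.46 ± 0.06 and 0.28 ± 0.08 (adjusted p = 0.314). The differences for Gpx2 (0.41 ± 0.43) and Selenoh (0.37 ± 0.28) were as large as that of Secisbp2 but had larger standard errors. Of the 15 genes that rose over all libraries 11 had positive values in each form, and Gpx1, Selenos, Selenow and Msrb1 were below 0 in the other-named libraries. Ranges of the diets did not overlap in GC-named libraries for 10 genes upward and 3 downward, where the shares of all genes were 15.2% and 13.8%. In other-named libraries this held for 8 genes upward and 2 downward, where the shares were 18.1% and 16.7%. The 2 genes lower there were Sepsecs and Selenop, and Selenop stood at 587 and 662 CPM with fish oil/pectin against 747 to 1144 CPM with corn oil/cellulose.

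**Figure D4:**
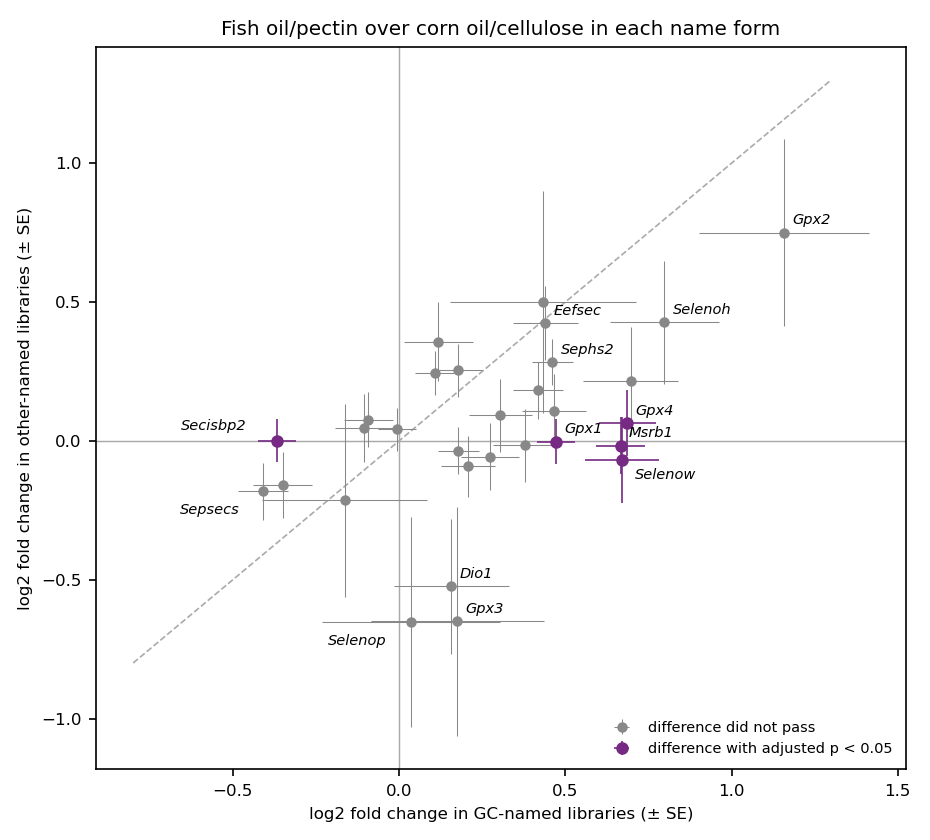
Log2 fold change with standard errors in GC-named (horizontal) and other-named libraries (vertical) for the 30 tested genes, with the dashed line where they are equal. The 5 purple genes, whose forms differed at an adjusted p under 0.05, lie near 0 on the vertical axis, while Eefsec lies on the line.

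Markers of cell types moved with the diet in part of the libraries. The 10 epithelial markers summed to 26525 to 32864 CPM in GC-named fish oil/pectin libraries and to 21782 to 23824 CPM in GC-named corn oil/cellulose libraries, but to 18415 to 18649 CPM and 18831 to 20192 CPM for the same diets in other-named ones. Of these 10 markers 5 rose and 0 fell over all libraries. The 5 goblet cell markers differed between the name forms. In GC-named libraries they summed to 2568 to 5767 CPM with fish oil/pectin and to 2668 to 4910 CPM with corn oil/cellulose. In other-named libraries these sums were 7437 to 7491 CPM and 5780 to 8974 CPM for the same diets. Of the 5 goblet markers 0 passed the test of diet over all libraries. The 8 T and NK cell markers summed to 10.4 to 27.0 CPM in GC-named fish oil/pectin libraries and to 19.0 to 47.8 CPM in GC-named corn oil/cellulose libraries, with 6 of 8 lower over all libraries. In other-named libraries they summed to 7.50 to 10.9 CPM with fish oil/pectin and to 6.75 to 11.7 CPM with corn oil/cellulose. The 8 markers of cycling cells summed to 503 to 1034 CPM with fish oil/pectin and to 406 to 704 CPM with corn oil/cellulose, 7 of them rose, and of the GC-named libraries fish oil/pectin 6 and 7 were highest, as they were for Gpx2 and Selenoh. With a score of non-epithelial markers in the model 6 of the 15 increases still passed, those of Gpx2, Selenof, Selenoh, Sephs1, Sephs2 and Eefsec, and of the 3 decreases that of Secisbp2l. The share of all genes called with the score is not given here. The score averaged the T and NK, myeloid, fibroblast and muscle, endothelial, and B and plasma cell markers. Enough reads to test were found for 0 of 9 fibroblast and muscle and 0 of 6 B and plasma cell markers. For the endothelial, myeloid, and T and NK cell markers it was 2 of 4, 5 of 8 and 8 of 8. Of the increases that did not pass with the score, Txnrd1 had a value of 0.18, above its 0.15 without it, and the others had lower values, such as Gpx4 at 0.31 and Gpx1 at 0.19.

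Exon length went with the diet effect over the whole table, and selenoprotein genes are mostly short. Among all genes in the shortest length class, 1 of 4 of equal size (exons up to 2435 bases) 35.8% were called higher and 5.05% lower, and in the longest class (from 6473 bases) 7.12% were called higher and 45.4% lower. The shortest class held 12 of the 30 genes, 9 of which rose and 0 fell. The second class held 8 genes with 3 increases, where 28.0% of all genes were called higher and 8.92% lower. The third held 5 genes with 2 increases and 1 decrease, where 15.9% of all genes were called higher and 20.9% lower. The longest held 5 genes with 1 increase and 2 decreases. Selenof and Txnrd1 rose with 5819 and 7086 exon bases, where the share of all genes called higher was 15.9% in the third and 7.12% in the longest class. With each library's trend on exon length removed, 10 of the 15 increases still passed and Gpx1 (0.08, adjusted p = 0.209), Selenow (0.15, adjusted p = 0.189), Selenok (0.15, adjusted p = 0.0929), Selenos (0.01, adjusted p = 0.935) and Trnau1ap (0.10, adjusted p = 0.265) did not. Of the decreases Secisbp2l did not pass with the trend removed (-0.14, adjusted p = 0.0997). The shares of all genes given above are from the fit with the trend kept, and those with it removed are not given here. Gpx4 still passed with a lower value (0.26, adjusted p = 0.00896). Selenoi, the longest of the genes at 13135 bases, then passed upward (0.22, adjusted p = 0.00325), as did Pstk (0.30, adjusted p = 0.0216).

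**Figure D5:**
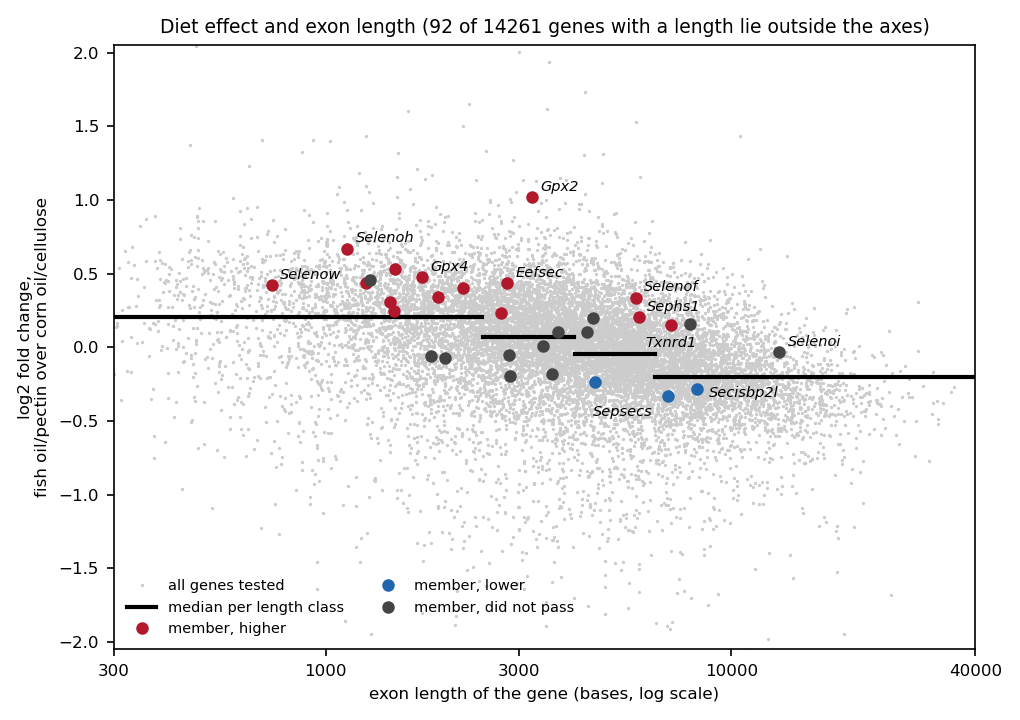
Log2 fold change (vertical) against exon length in bases (horizontal, log scale) for all genes with a length (grey), the median of each of 4 length classes (black lines) and the 30 tested genes (coloured). The class medians run from 0.20 for the shortest genes to -0.20 for the longest, and Gpx2, Selenoh and Selenof lie above the median of their class.

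The position of the selenocysteine codon was set beside the diet effect, since a UGA codon ahead of an exon junction is known as a possible trigger of messenger decay. Of the 14 tested genes with such a codon before the last exon 9 rose and 0 fell, with a median log2 fold change of 0.34. Of the 7 genes whose codons lie only in the last exon 3 rose (Selenos, Sephs2 and Txnrd1) and 0 fell, with a median of 0.11. Whether these groups differ was not tested, and they were not matched for exon length, which went with the diet effect. Selenoi (13135 bases) and Txnrd1 (7086 bases) are in the last-exon group, as are the shorter Selenos (1477 bases) and Sephs2 (2177 bases). Of all genes tested 21.7% were called higher and 20.1% lower. Of the 14 genes with a codon before the last exon, those that did not pass were Selenot (0.01), Gpx3 (-0.06), Dio1 (-0.07), Selenon (-0.18) and Selenop (-0.19).

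Promoter sequences from RefSeq on GRCm38.p6, 250 bases before to 50 after the start, matched 30 of the 31 genes, with 38 promoters in all. The antioxidant response element core TGACNNNGC, searched on both strands, occurred in 12.4% of 32851 promoters and in those of Selenok and Txnrd1 among the 30 genes. In Selenok the match TGACTGGGC lies 44 bases before the RefSeq start (chr14:29968336-29968344). In Txnrd1 the match GCTTTGTCA, on the opposite strand, lies 92 bases before a RefSeq start (chr10:82859114-82859122), and the other Txnrd1 promoters held no match. Both matches lie inside the genes as annotated by GENCODE, which start at 29968308 for Selenok and 82833951 for Txnrd1. The ER stress response element, CCAAT and CCACG with 9 free bases between, occurred in 0.119% of all promoters and in 0 of the 38, which says only that these letters are not in these windows.

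Other genes of the selenium pathway were taken from 4 lists. Of 10 genes of selenium uptake and metabolism 8 were tested, 3 rose and 1 fell. Of all genes tested 21.7% were called higher and 20.1% lower, or 41.7% in all. Lrp8, a receptor for selenoprotein P in mouse brain and testis, ranged from 2.14 to 12.1 CPM with fish oil/pectin, with a median of 5.69, and from 0.621 to 4.66 CPM with corn oil/cellulose, with a median of 2.40 (log2 fold change 1.44 ± 0.33, edgeR adjusted p = 0.00310). Ahcy, which hydrolyses adenosylhomocysteine, ranged from 69.6 to 86.5 CPM with fish oil/pectin and from 60.2 to 68.0 CPM with corn oil/cellulose, with no overlap (0.25 ± 0.05, adjusted p = 0.00161). Lrp1, another endocytic receptor of this family, fell by 0.26 (SE 0.10, adjusted p = 0.0425). Lrp2 was at 0 in every library, Inmt stayed at or below 0.119 CPM, and neither was tested. The selenoproteins Dio2, Dio3 and Selenov were also too low to test, with at most 0.0575, 0.331 and 0 CPM with fish oil/pectin and 0.124, 0.534 and 0 CPM with corn oil/cellulose.

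Among 11 genes that handle the selenocysteine tRNA or bind selenoprotein messengers 6 rose and 2 fell. The shares of all genes tested were 21.7% higher and 20.1% lower. Sars, the synthetase that loads serine on this tRNA, averaged 195 ± 29.4 CPM (SD, n = 7) with fish oil/pectin and 144 ± 9.94 CPM (SD, n = 9) with corn oil/cellulose (0.39 ± 0.07, edgeR adjusted p = 0.000611). Eif4a3, known to bind the hairpin of some selenoprotein messengers and limit their translation, averaged 126 ± 23.4 CPM with fish oil/pectin and 88.0 ± 9.85 CPM with corn oil/cellulose (0.48 ± 0.08, adjusted p = 0.000672). Alkbh8, which modifies the anticodon of the selenocysteine tRNA, fell by 0.36 (SE 0.09, adjusted p = 0.00449). Tgs1, an enzyme that methylates RNA caps, fell by 0.49 (SE 0.16, adjusted p = 0.0196). Of 16 redox and endoplasmic reticulum partners 15 were tested, 9 rose and 0 fell, against the same shares of all genes. Gsr, which regenerates the glutathione that glutathione peroxidases use, ranged from 141 to 187 CPM with fish oil/pectin and from 112 to 140 CPM with corn oil/cellulose, with no overlap (0.39 ± 0.07, adjusted p = 0.000709). Txn2, the mitochondrial thioredoxin that Txnrd2 reduces, ranged from 192 to 318 CPM with fish oil/pectin and from 168 to 213 CPM with corn oil/cellulose (0.35 ± 0.07, adjusted p = 0.00109).

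Several of the genes overlap others on the opposite strand: Selenoo with Tubgcp6, Selenop with Ccdc152, Sephs2 with Gm44729 over 792 exon bases, Scly with Gm17090 and Eefsec with Gm44264 over 308. The library kit marks strand, but the strand setting of the counting is unknown from the sources used here. Reads in these stretches may therefore be divided in ways that cannot be checked here.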

How the data were processed

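The deposited values are the authors' raw read counts per gene symbol, 1 column per library, without normalisation. The submitters' processing notes name the build GRCm38 and the tools HTSeq 0.11.1 and STAR 2.6.0a. The sources used here do not give the annotation release. Per the labels' protocols 200 ng of RNA entered a stranded mRNA preparation. The labels number biological replicates without saying that mice were separate. The p-values therefore reflect variation among libraries, which may be technical. No 2 libraries of a diet agreed within sampling noise (chi-square per degree of freedom 8.20 to 141 over 57 pairs).

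Counts were analysed with edgeR 4.0.16 in R 4.3.3 (robust quasi-likelihood test, TMM scaling, filterByExpr, which kept 14321 genes holding 99.9% of counts). The model held diet and library name form. A standard error is the size of the log2 fold change divided by the root of F, and p-values were adjusted over all genes by the Benjamini-Hochberg method. Name-form differences came from an interaction fit. Mean CPM are not adjusted for the name form, whereas fold changes are. Tested on simulated data, the fit missed part of the changed genes, most of those with small folds, and its share of false calls was somewhat above the nominal 0.05, so calls near the threshold are less sure. Alternatives included DESeq2 1.42.0, limma 3.58.1 voom, other scalings and filters, each library left out, sex read from Y-linked counts (over 100 as male) and a loess trend on exon length (span 0.3). The fit without fish oil/pectin libraries 6 and 7 and the name-form difference with sex as a term were added after seeing the data. Exon lengths, coordinates and coding sequences come from GENCODE M21. The same numbers in both diets did not pair libraries (closing section).

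The genes and lists were chosen with earlier results of these data known. All 31 genes are named. In each list of other selenium pathway genes up to 2 called genes with the lowest p in each direction are named.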

Additional observations from a re-analysis of the deposited data

Results flagged for a closer look

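The diet effect differed between GC-named and other-named libraries for 5 of the 30 tested genes, by the interaction test in edgeR. The difference in log2 fold change, GC-named minus other-named, was 0.4747 for Gpx1, 0.6238 for Gpx4, 0.7405 for Selenow, 0.6831 for Msrb1 and -0.3687 for Secisbp2. With the exon length trend removed it passed for 0 of them, at 0.22, 0.38, 0.45, 0.42 and -0.36 for the genes in that order (adjusted p = 0.132, 0.0967, 0.129, 0.0578 and 0.0578). With sex as a term it passed for 5 of the 30 genes. Leaving out fish oil/pectin library 1 or 2 leaves 1 other-named library of that diet, assumed to vary like the other groups. On that basis the difference of Gpx1 was 0.50 without library 1 (adjusted p = 0.0484) and 0.44 without library 2 (adjusted p = 0.156). The difference for Secisbp2 was also lost when corn oil/cellulose library 1, 2, 3 or 6 was left out (-0.39 to -0.34), as was that of Selenow when corn oil/cellulose library 3 (0.74, adjusted p = 0.0581) or 6 (0.71, adjusted p = 0.0502) was. The 6 other-named libraries were all read as male, so name form and sex are in part confounded and cannot be told apart there.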

How the results depend on the processing

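The count of genes that rose, 15 in the report, was 13 to 17 when each library was left out, 9 with name form and replicate block, 6 with the non-epithelial marker score and 1 (Sephs2) in other-named libraries alone. The count that fell, 3, was 3 to 3 when each library was left out, 1 with the marker score and 0 in other-named libraries alone. For these settings the shares of all genes called are not given here. Whether the changes in count are particular to the selenium genes was not tested. The difference between name forms, 5 genes, gave 0 to 7 genes when each library was left out and 0 with the length trend removed. Among called genes signs turned in other-named libraries alone for Selenos (-0.0086), Selenow (-0.064), Msrb1 (-0.0107) and Secisbp2 (0.0071), and the uncalled Selenoi passed upward with the length trend removed (0.2157). Other uncalled genes also changed sign under some settings: Gpx3, Txnrd2, Txnrd3, Selenot, Selenoo, Selenop, Dio1 and Pstk. Like Selenoi, Pstk passed upward with the length trend removed (0.299). The causes were not tested. The replicate numbers shared by the diets did not pair libraries (correlations of same-numbered libraries from -0.07 to 0.48, 1 of 7 highest with its own number). The 6 increases lost with the block had values there from 0.17 for Txnrd1 to 0.48 for Selenow, each no lower than without it. Scaled by total counts, which moved the median of all genes by -0.07, 11 of the 15 increases passed, and 37.3% of all calls were higher, against 51.9% with TMM scaling. Gpx2, Selenof, Selenoh and Eefsec did not pass in other-named libraries alone and passed under all other settings. Low counts limit Gpx3, Gpx7, Gpx8 and Selenon.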
